A study of Mus musculus with 8 samples.

Results

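Integrin subunits and the focal adhesion proteins that join them to actin were followed as a set of 35 genes, chosen by name from the 24982 genes of the count table. They comprise 18 integrin subunits and 17 adaptor and kinase genes, and all 35 passed the filter on low counts. RNA was sequenced from cultured tail tendon fibroblasts, the collagen-producing cells grown out of mouse tail tendon, to compare cells that contain scleraxis (Scx), a transcription factor of tendon cells, with cells in which it was deleted. The 4 Scx-positive libraries (genotype Scx+, titled ScxWT 2, 3, 5 and 6) and the 4 Scx-deleted libraries (genotype Scx-, titled ScxKO 2, 3, 4 and 5) were all of strain C57Bl/6. Values per library are given in that order, and errors are SDs over 4 libraries for levels and standard errors (SE) for log2 changes. Every library, Scx-positive ones included, came from cells treated with 4HT. The Cre driver, the deleted part of the gene, and the age and sex of the mice were not given in the labels used here. No label says that the libraries came from separate mice or cultures, so p-values cover only the spread among the libraries at hand, and that spread may be technical.

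Integrins are receptors made of 1 alpha and 1 beta chain that bind the matrix outside the cell and, through talin and kindlin, the actin skeleton inside it. The alpha chain largely sets the ligand: some bind collagen, some bind the short RGD motif of fibronectin and related proteins, and some bind laminin. At a focal adhesion, clustered integrins recruit adaptors such as vinculin, paxillin, zyxin and the ILK, PINCH and parvin complex, and kinases such as FAK, and tendon cells use these contacts to sense and transmit load.

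Scx had 177, 132, 252 and 156 counts in the Scx-positive libraries and 3, 1, 2 and 3 in the Scx-deleted ones, so every library matched its label at this gene. Gene counts per library ranged from 18408278 to 25180790 in the Scx-positive and from 17343228 to 22178439 in the Scx-deleted cells. The first principal component, 53.3% of the variance, separated the genotypes, and on the second, 12.9%, Scx-positive library 5 stood apart. Pairs with that library differed by a chi-square of 11.6 to 13.4 per degree of freedom, against 2.43 to 4.54 between the other Scx-positive pairs and 2.60 to 3.68 between Scx-deleted pairs. The summed level of 10 tendon fibroblast markers was 9337 to 11878 CPM (counts scaled to library size) in the Scx-positive and 6554 to 7332 CPM in the Scx-deleted libraries, and 9 of the 10 were lower in the Scx-deleted cells, 1 of them Scx itself, the deleted gene. Among them the tenocyte marker Tnmd averaged 6.93 ± 0.972 and 2.63 ± 0.274 CPM (SD, n = 4 each), and Mkx was not called. In bulk RNA, fewer cells of a type and less RNA per cell cannot be told apart.

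Of the 35 genes, 4 stood higher in Scx-deleted cells, 7 stood lower and 24 were not called (edgeR's quasi-likelihood test over all genes, Benjamini-Hochberg adjusted p under 0.05). That is 31.4% of the set, against 28.5% of the 13125 genes tested, of which 14.0% were higher and 14.5% lower. Itgb7, Parvb, Itga7 and Lims1 rose. Zyx, Itgb4, Itga9, Ddr1, Itga3, Tln1 and Parva fell. The groups did not overlap for 3 genes with Scx-deleted cells above and 5 with them below, and over all genes 29.1% showed no overlap, 14.8% above and 14.3% below. The median log2 change of the set was 0.01, against -0.01 over all genes tested, and the median size without its sign was 0.11 against 0.12. No gene of the set changed by 2-fold or more, and 191 of the 13125 genes tested (1.46%) were called with a change of that size. Scx-positive library 5 bears on the counts: without it, 5 genes of the set were higher and 9 lower. The plot of all 35 changes shows that most intervals lie close to 0.

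**Figure D1:**
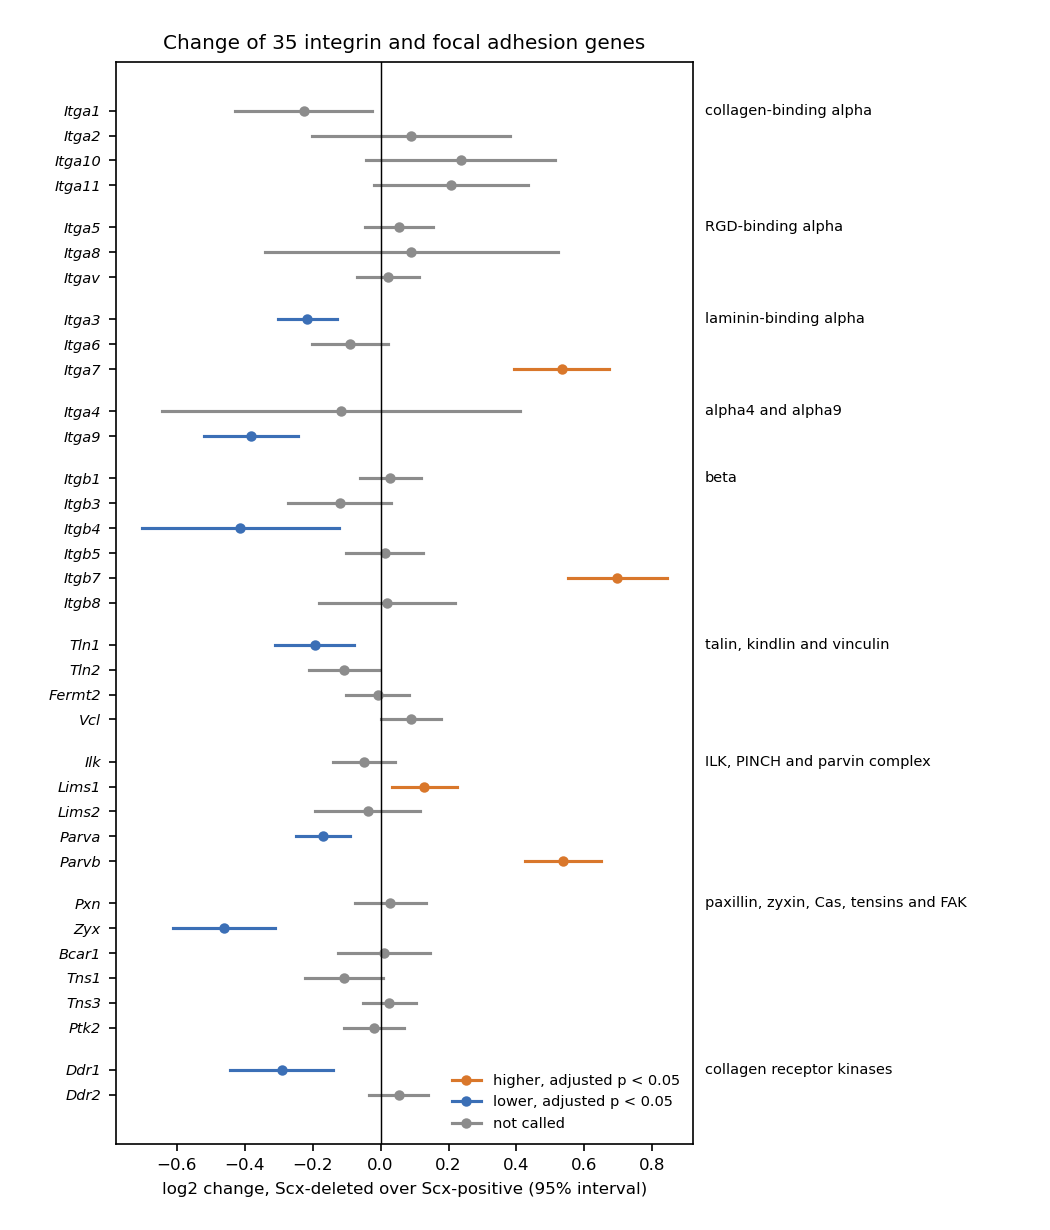
Log2 change, Scx-deleted over Scx-positive cells, for the 35 genes in 9 classes by role. Points are edgeR estimates and bars their 95% intervals, in orange for the 4 genes higher, blue for the 7 lower and grey for the 24 not called. Itgb7, Itga7 and Parvb lie farthest to the right.

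The genes not called were mostly measured closely. For 18 of the 24, the 95% interval of the change lay within 0.32 on the log2 scale in either direction. The other 6, Itga1, Itga2, Itga10, Itga11, Itga8 and Itga4, had intervals that reached past that size, and 4 of them are the whole collagen-binding class. Members were more often well expressed than genes at large: 27 of 35 (77.1%) averaged at least 20 CPM in Scx-positive cells, against 7927 of the 13125 (60.4%). At that level 10 of 27 (37.0%) were called, against 31.5% of all genes.

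The upstream sequences of the largest 2 rises, Itgb7 and Parvb, are shown first because scleraxis is a basic helix-loop-helix factor, a class that binds the E-box, CANNTG. RefSeq's table for GRCm38.p6 held promoters for 26 of the 35 genes, in 34 rows. Both have 1 promoter row within 1000 bases of the annotated start, with no more than 30 bases in an exon of the gene, and no called gene that fell met these limits. Each run gives the 250 bases before the RefSeq start, 5′ to 3′ on the gene's own strand, with E-boxes in capitals. That of Itgb7 lies at chr15:102231936-102232185 on the minus strand and that of Parvb at chr15:84231793-84232042 on the plus strand.
Itgb7: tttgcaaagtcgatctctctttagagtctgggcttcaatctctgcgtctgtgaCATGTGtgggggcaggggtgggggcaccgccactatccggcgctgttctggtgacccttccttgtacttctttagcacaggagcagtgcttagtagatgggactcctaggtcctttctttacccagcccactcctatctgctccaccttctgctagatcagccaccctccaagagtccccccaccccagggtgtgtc
Parvb: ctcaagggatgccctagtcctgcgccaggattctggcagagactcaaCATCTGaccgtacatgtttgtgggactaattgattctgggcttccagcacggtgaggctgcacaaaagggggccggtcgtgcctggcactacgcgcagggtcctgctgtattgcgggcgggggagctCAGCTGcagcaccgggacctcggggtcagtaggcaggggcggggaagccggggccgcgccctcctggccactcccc

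Itgb7 held 1 E-box, CATGTG, whose first base lay at -197 from the start. Parvb held CATCTG at -203 and CAGCTG at -76. The RefSeq window of Zyx, of which 198 of 250 bases lie inside the gene as annotated by GENCODE, held none and is not shown. E-boxes, which read as CANNTG on both strands, were found in 23 of 34 rows of the set (67.6%) and in 66.2% of all 32851 promoters of the same length. No chromosome was left out of the latter. By call they stood in 5 of 5 rows from 3 genes that rose, 7 of 9 rows from 5 genes that fell and 11 of 20 rows from 18 genes not called, and rows of 1 gene are not independent. The CArG box of serum response factor stood in 2 of the 34 rows, those of Fermt2 and Vcl, and in 1.47% of all promoters. A match is a description of the letters and was not tested as a binding site.

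Among the integrins, 2 of 18 rose and 3 fell, near the shares over all genes of 14.0% higher and 14.5% lower. Levels of different genes were compared roughly, per kilobase of merged exons. This length takes in the exons of every annotated transcript, expressed or not, and was 18.6 kilobases for Itga1 and 4.08 for Itgb1. Itgb1 stood above all other genes of the set, at 347 CPM per kilobase in the Scx-positive and 354 in the Scx-deleted cells. Itgb5 at 98.9 and 99.8, Itga5 at 69.2 and 71.9, Itga3 at 39.3 and 33.8 and Itgav at 33.1 and 33.6 CPM per kilobase were the next most abundant subunits. These chains form receptors for fibronectin, vitronectin and laminin. The plot of levels per length gives the order of all 35 genes.

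**Figure D2:**
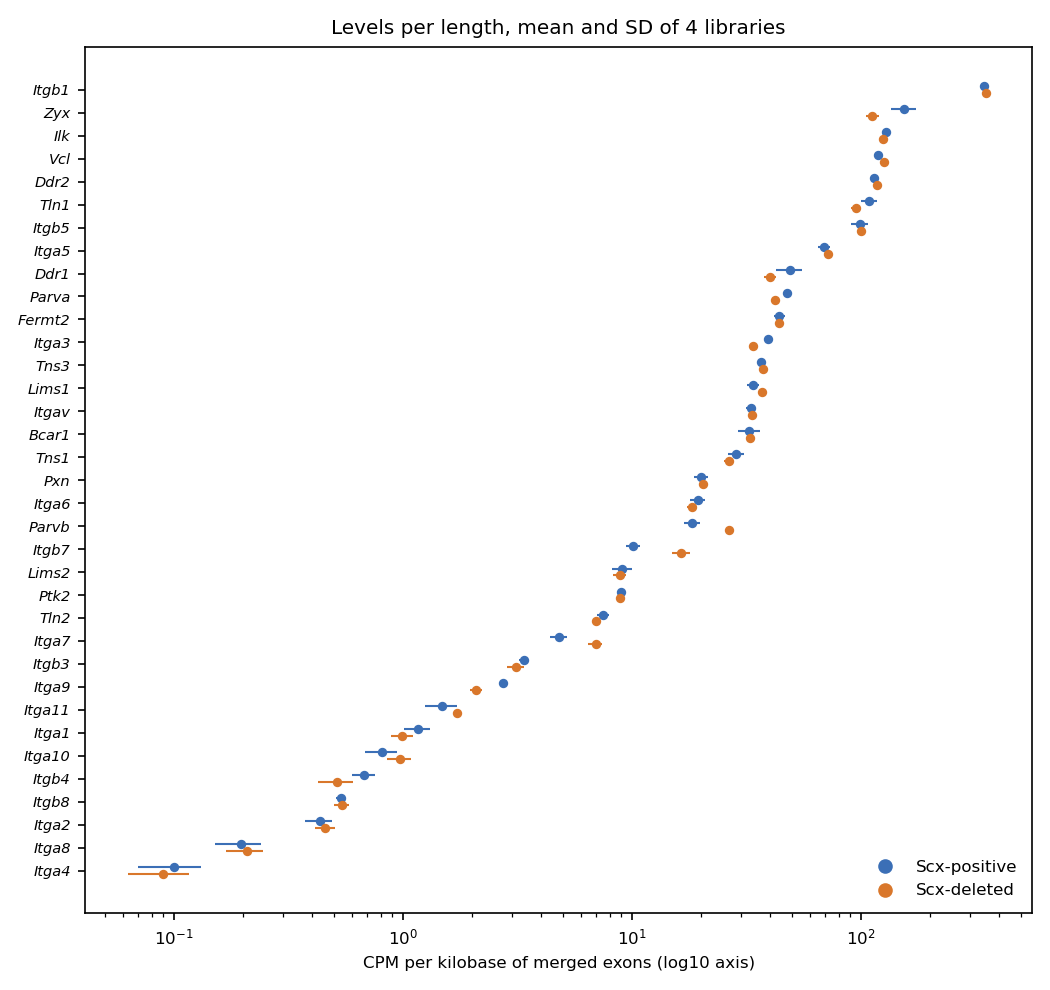
Mean level of each of the 35 genes in CPM per kilobase of merged exons (log10 axis), with the SD of 4 libraries, in Scx-positive (blue) and Scx-deleted (orange) cells. Levels run from about 0.1 for Itga4 to 347 for Itgb1 in Scx-positive cells, and the order of the genes is nearly the same in both genotypes.

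The collagen-binding alpha chains are Itga1, Itga2, Itga10 and Itga11, each a partner of Itgb1, and none of the 4 was called. Their transcripts made up 2.25% ± 0.092 of the summed alpha-chain level per kilobase in the Scx-positive and 2.42% ± 0.118 in the Scx-deleted cells (SD, n = 4 each), and the groups overlapped. Itga11, a fibrillar collagen receptor of fibroblasts, measured 8.23, 6.15, 8.94 and 7.17 CPM in the Scx-positive and 9.36, 8.75, 8.59 and 8.73 CPM in the Scx-deleted libraries. The groups overlapped at Scx-positive library 5, the highest of its group. The log2 change was 0.21 ± 0.11 (SE; 95% interval -0.02 to 0.43; edgeR adjusted p = 0.163). Without Scx-positive library 5 it was 0.30 and was called (edgeR adjusted p = 0.0244).

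Itga1, a receptor with a preference for collagen IV, measured 18.8, 24.9, 19.9 and 22.9 CPM in the Scx-positive and 18.5, 17.4, 21.4 and 16.7 CPM in the Scx-deleted libraries. Only Scx-deleted library 4 reached into the Scx-positive range. Its log2 change was -0.23 ± 0.09 (95% interval -0.43 to -0.02; edgeR adjusted p = 0.0879), and it was called lower without Scx-positive library 2 (adjusted p = 0.0466), without Scx-positive library 5 (0.0287) or without Scx-deleted library 4 (0.0371). Itga10, known from cartilage, averaged 4.22 ± 0.683 and 5.02 ± 0.604 CPM with a log2 change of 0.24 ± 0.13 (edgeR adjusted p = 0.196). Its exons share 33.5% of their bases with Gm42957 on the same strand, which is not among the genes counted. Itga2 averaged 3.08 ± 0.424 and 3.27 ± 0.333 CPM. The intervals of these low-count genes were wide, so for them a missing call does not show that the genotypes were alike.

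Of the RGD-binding alpha chains, Itga5 forms the main fibronectin receptor with Itgb1, and Itgav pairs with several beta chains to bind vitronectin, fibronectin and latent TGF-beta. Itga5 measured 331, 320.2, 345 and 369.6 CPM in the Scx-positive and 359.9, 351, 369 and 339.5 CPM in the Scx-deleted libraries. Itgav measured 361, 359, 333 and 370.0 CPM against 359, 379.8, 355 and 349 CPM. The Scx-deleted values of Itga5 lay inside the Scx-positive range, and those of Itgav overlapped it in part, with library 3 above it. The genes had log2 changes of 0.05 (95% interval -0.05 to 0.15) and 0.02 (-0.07 to 0.11). The sign for Itgav is not fixed by the data: it was slightly negative under upper-quartile scaling and without either of 2 libraries. Itga8, a nephronectin receptor, was near the limit of detection at 1.45 ± 0.327 and 1.53 ± 0.282 CPM. The RGD class held 59.3% ± 1.44 of the alpha-chain level in the Scx-positive and 61.8% ± 1.17 in the Scx-deleted cells, with overlapping groups.

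The laminin-binding alpha chains Itga3, Itga6 and Itga7 went in different directions. Itga3 (chr11:95044474-95076801, minus strand, GRCm38), a receptor for several laminins, measured 232, 219.7, 229 and 217 CPM in the Scx-positive and 188, 187, 197 and 201 CPM in the Scx-deleted libraries. All Scx-deleted libraries lay below all Scx-positive ones. The log2 change was -0.22 ± 0.04 (edgeR adjusted p = 0.000952). Itga7 (chr10:128933818-128958282, plus strand), the laminin receptor best known from muscle and the muscle-tendon junction, measured 36.3, 39.8, 43.1 and 36.1 CPM in the Scx-positive and 54.0, 53.2, 55.3 and 62.1 CPM in the Scx-deleted libraries. Here every Scx-deleted library lay above every Scx-positive one. The rise was 0.53 ± 0.07 on the log2 scale (95% interval 0.39 to 0.67), or 1.45-fold (edgeR adjusted p = 2.12e-05).

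The summed level of 7 skeletal muscle markers was 34.7 to 40.8 CPM in the Scx-positive and 26.8 to 36.2 CPM in the Scx-deleted libraries. Most of it was Acta1. Of these 7, only 2 were tested: Acta1 was lower and Des was not called. Myod1 and Myf5 were at 0 in all libraries. Mural cells, the smooth muscle cells and pericytes of vessels, also express Itga7. The summed level of 7 mural markers was 726 to 861 CPM in the Scx-positive and 928 to 954 CPM in the Scx-deleted libraries. Most of this sum was Cspg4 (means of 271 and 365 CPM) and Pdgfrb (428 and 503 CPM). Of the 6 tested, Cspg4 and Pdgfrb, which fibroblasts also express, were higher, Rgs5 was lower at 1.29 ± 0.218 and 0.668 ± 0.302 CPM, and Mcam, Myh11 and Abcc9 were not called. None of the 7 mural markers was at 0. The part of muscle or mural cells in the result for Itga7 was not tested.

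Itga6, which pairs with Itgb1 or Itgb4, averaged 175 ± 13.1 CPM in the Scx-positive and 164 ± 6.64 CPM in the Scx-deleted cells, a log2 change of -0.09 ± 0.05 (95% interval -0.20 to 0.02; edgeR adjusted p = 0.223). Without Scx-positive library 5 the change was -0.13 and was called (edgeR adjusted p = 0.0118). With Itga3 the most abundant of the 3, the summed laminin class went from 63.5 ± 1.21 to 59.0 ± 1.93 CPM per kilobase with no overlap between groups, although Itga7 rose. As a share of all alpha chains the class held 36.8% ± 1.36 and 34.5% ± 1.21, with overlap. Within it the ratio of Itga7 to Itga3 per kilobase was 0.110, 0.128, 0.133 and 0.117 in the Scx-positive and 0.202, 0.201, 0.199 and 0.218 in the Scx-deleted libraries. Every Scx-deleted ratio lay above every Scx-positive one, which follows from the values of both genes given above. Itga3 transcripts remained several times more abundant.

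Itga4 and Itga9 bind, among others, VCAM-1, osteopontin and tenascin-C. Itga9 (chr9:118606690-118901003, plus strand) measured 20.5, 21.0, 21.7 and 20.8 CPM in the Scx-positive and 16.1, 17.5, 15.3 and 15.5 CPM in the Scx-deleted libraries. The Scx-positive values were tightly grouped and all stood above the Scx-deleted ones. It fell by 0.38 ± 0.07 on the log2 scale (edgeR adjusted p = 0.000393). Itga4 was at 1.405 ± 0.428 and 1.253 ± 0.370 CPM, too low to compare closely.

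Among the beta chains, Itgb1, the common partner of the collagen, laminin and main fibronectin receptors, held 75.3% ± 2.20 of the summed beta-chain level per kilobase in the Scx-positive and 74.6% ± 0.433 in the Scx-deleted cells. It measured 1396, 1423, 1341 and 1499 CPM against 1442, 1451, 1468 and 1414 CPM. The Scx-deleted values all fell inside the Scx-positive range, and the log2 change was 0.03 with a 95% interval of -0.06 to 0.12 (edgeR adjusted p = 0.651). Itgb3, Itgb5 and Itgb8, which pair with Itgav, were not called, at log2 changes of -0.12 ± 0.07, 0.01 ± 0.05 and 0.02 ± 0.09.

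Itgb7 (chr15:102215995-102231944, minus strand) showed the largest change of the set. It measured 29.3, 25.5, 27.5 and 29.8 CPM in the Scx-positive and 42.8, 43.8, 51.7 and 44.0 CPM in the Scx-deleted libraries. All Scx-deleted values were above all Scx-positive ones, with library 4 the highest. The rise was 0.70 ± 0.07 on the log2 scale (95% interval 0.55 to 0.84), or 1.62-fold (edgeR adjusted p = 2.06e-06). Per kilobase, Itgb7 went from 10.1 to 16.5 CPM and from 2.20% ± 0.132 to 3.47% ± 0.278 of the summed beta chains.

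The beta7 chain is known from lymphocytes, where it pairs with the alpha4 or the alphaE chain. Of these partners Itga4 was at 1.405 and 1.253 CPM, and Itgae, looked up after the values of Itgb7 were seen, at 0.159 ± 0.109 CPM in the Scx-positive and 0.111 ± 0.0182 CPM in the Scx-deleted libraries. The summed level of 10 leukocyte markers was 8.35 to 11.2 CPM in the Scx-positive and 13.8 to 18.1 CPM in the Scx-deleted libraries. Itgb7 itself averaged 28.0 and 45.6 CPM. Of the 4 markers that were tested, Itgb2 (3.16 and 6.11 CPM), Cd68 (3.05 and 4.64) and Csf1r (1.80 and 2.97) were higher. Lyz2 (1.57 and 1.40 CPM) was not called. Ptprc, the pan-leukocyte marker CD45, was at 0.0351 and 0.0642 CPM, and Cd3e, which defines T lymphocytes, was at 0 in all libraries. The part of leukocytes in the result for Itgb7 was not tested.

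Itgb4 (chr11:115974709-116008412, plus strand), the partner of Itga6 in hemidesmosomes, measured 5.07, 3.96, 5.11 and 4.85 CPM in the Scx-positive and 4.30, 2.85, 3.89 and 3.37 CPM in the Scx-deleted libraries. The groups overlapped, since Scx-positive library 3 lay below Scx-deleted library 2. It fell by 0.41 ± 0.14 on the log2 scale (edgeR adjusted p = 0.0329). The call was lost without Scx-positive library 2 (adjusted p = 0.0891) or 6 (0.0657), without Scx-deleted library 3 (0.115) or 5 (0.0935), and in DESeq2 (0.0588). Epithelial and Schwann cells also express Itgb4. The summed level of 7 keratinocyte markers was 2.84 to 4.27 CPM in the Scx-positive and 3.29 to 4.32 CPM in the Scx-deleted libraries, with Krt1 at 0 throughout. Most of it was Krt10 (means of 2.68 and 3.32 CPM), the only keratinocyte marker tested, which was not called. The summed level of 6 Schwann markers was 41.5 to 47.7 against 38.5 to 43.7 CPM, with S100b lower, the other 5 not called and none at 0. The part of these cells in the result was not tested.

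The adaptors begin with talin and kindlin, which bind the beta tail and switch integrins on, and vinculin, which strengthens the link from talin to actin. Tln1 (chr4:43531519-43562691, minus strand), the main talin, measured 1026, 972, 1142 and 1135 CPM in the Scx-positive and 1001, 912, 909 and 913 CPM in the Scx-deleted libraries. The groups overlapped because Scx-deleted library 2 lay above Scx-positive library 3. Tln1 fell by 0.19 ± 0.05 on the log2 scale (edgeR adjusted p = 0.0140), and the call was lost without Scx-positive library 6 (adjusted p = 0.0533) and with numbers 2, 3 and 5 alone (0.133). Tln2 averaged 138 ± 8.50 and 128 ± 4.99 CPM, and its log2 change of -0.11 ± 0.05 was not called. Fermt2 (kindlin-2) averaged 229 ± 12.4 and 228 ± 5.30 CPM.

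Vcl (vinculin) averaged 973 ± 38.6 CPM in the Scx-positive and 1035 ± 31.9 CPM in the Scx-deleted cells, with a log2 change of 0.09 ± 0.04 that was not called (edgeR adjusted p = 0.128). Its exons share 25.5% of their bases with Ap3m1 on the opposite strand, and whether counting used strand is not stated. The authors' deposited table called Vcl higher, at a log2 fold change of 0.11 with an adjusted p of 0.00680.

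The ILK, PINCH and parvin complex sits on the beta tail and binds actin through the parvins. Its scaffold Ilk measured 342, 347, 374 and 357 CPM in the Scx-positive and 360.4, 336, 348 and 328 CPM in the Scx-deleted libraries, with overlapping groups and a log2 change of -0.05 (95% interval -0.14 to 0.04). Reads of Ilk are hard to assign without strand, since 76.7% of its exon bases overlap Taf10 and 12.9% overlap Rrp8, both on the opposite strand. Rrp8 was called higher.

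The 2 parvins of the set moved in opposite directions. Parvb (chr15:84232043-84315688, plus strand), beta-parvin, measured 84.8, 75.2, 75.5 and 87.8 CPM in the Scx-positive and 115, 115, 119.8 and 119 CPM in the Scx-deleted libraries. The 4 Scx-deleted values were close together and all above the Scx-positive ones. It rose by 0.54 ± 0.05 on the log2 scale (95% interval 0.43 to 0.65), or 1.45-fold (edgeR adjusted p = 1.98e-06). Parva (chr7:112427505-112591692, plus strand), alpha-parvin, measured 473, 483, 473 and 502 CPM against 429, 439, 422 and 425 CPM. Every Scx-deleted library lay below every Scx-positive one, a fall of 0.17 ± 0.04 (edgeR adjusted p = 0.00283).

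Because the parvins compete for the same site on ILK, their ratio was also taken in each library. Per kilobase, Parvb over Parva was 0.412, 0.358, 0.367 and 0.403 in the Scx-positive and 0.618, 0.603, 0.652 and 0.647 in the Scx-deleted libraries. The 2 groups did not overlap, and Parva transcripts remained the more abundant in all 8. Since Parvb lay above and Parva below in every Scx-deleted library, this separation follows from those values and is no further result. Parvg, the parvin of blood cells, is no member of the set and was at 0.633 ± 0.108 and 1.24 ± 0.402 CPM.

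Lims1 (chr10:58323466-58424691, plus strand), which encodes PINCH-1, measured 165, 162, 155 and 179 CPM in the Scx-positive and 178, 183, 179 and 182 CPM in the Scx-deleted libraries. Scx-positive library 6 lay within the Scx-deleted values. It rose by 0.13 ± 0.04 on the log2 scale (edgeR adjusted p = 0.0408), the weakest call of the set. The call was lost without Scx-positive library 2 or 3, without any 1 of the 4 Scx-deleted libraries, and under upper-quartile scaling, with adjusted p up to 0.0972. Lims2 (PINCH-2) averaged 27.8 ± 2.74 and 27.1 ± 1.72 CPM and was not called.

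**Figure D3:**
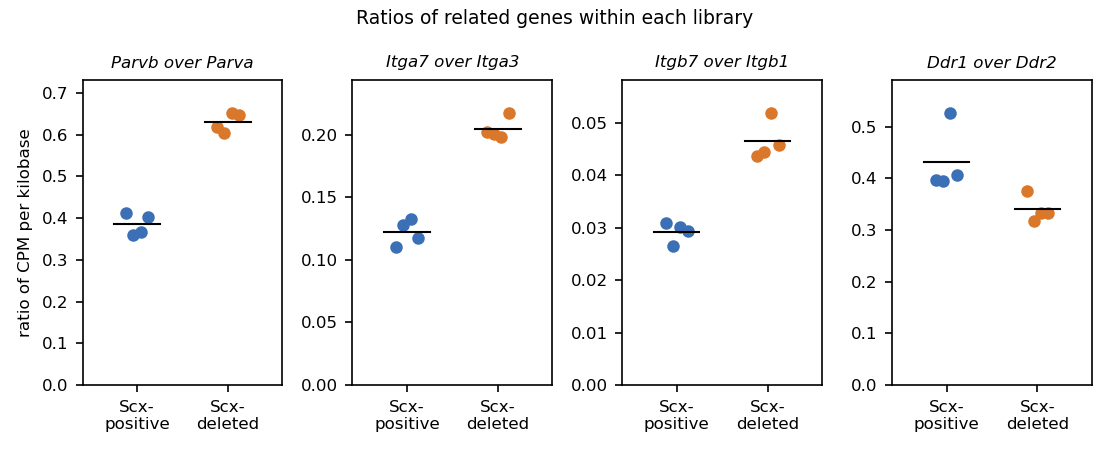
Ratios of CPM per kilobase within each library for 4 pairs of related genes, in Scx-positive (blue) and Scx-deleted (orange) cells, with a line at each group's mean and axes from 0. Parvb over Parva, Itga7 over Itga3 and Itgb7 over Itgb1 are higher in every Scx-deleted library, and Ddr1 over Ddr2 is lower. Other ratios taken are not drawn. Itga7 over Itga6 was also higher in every Scx-deleted library. The groups overlapped for Lims1 over Lims2 (3.75 ± 0.445 and 4.18 ± 0.286) and for Tln1 over Tln2 (14.5 ± 0.337 and 13.7 ± 0.472).

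Zyx, Pxn, Bcar1, Tns1, Tns3 and Ptk2 form the outer and signalling part of the adhesion. Zyx (chr6:42349630-42360213, plus strand) encodes zyxin, a LIM protein that gathers at adhesions and stress fibres under tension. It measured 781, 743, 974 and 834 CPM in the Scx-positive and 662, 580.0, 576 and 604 CPM in the Scx-deleted libraries. The Scx-positive libraries were spread widely, yet the lowest of them stood above the highest Scx-deleted one. Zyx fell by 0.46 ± 0.07 on the log2 scale (edgeR adjusted p = 0.000156), and by 0.37 ± 0.05 without Scx-positive library 5. Its exons share 4.38% of their bases with Epha1 on the opposite strand, which averaged 21.6 and 9.38 CPM and was itself lower.

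The other 5 were not called. Ptk2, which encodes FAK, measured 102, 103, 106 and 112 CPM in the Scx-positive and 103, 107, 105 and 103 CPM in the Scx-deleted libraries. These values overlapped throughout, and the 95% interval of the log2 change, -0.11 to 0.07, lay on both sides of 0, and its sign differed between alternatives. Pxn (paxillin) averaged 165 ± 12.1 and 168 ± 3.65 CPM, and Bcar1 (p130Cas) 148 ± 16.3 and 149.7 ± 6.37 CPM. The tensins, which bind beta tails and actin in fibrillar adhesions, averaged 457 ± 37.1 and 424 ± 19.3 CPM for Tns1 and 409.6 ± 10.1 and 417 ± 7.55 CPM for Tns3.

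The discoidin domain receptors are tyrosine kinases that bind collagen directly, without integrins. Ddr1 (chr17:35681567-35704621, minus strand) measured 221, 211, 278 and 226 CPM in the Scx-positive and 207, 186, 181 and 191 CPM in the Scx-deleted libraries. The groups did not overlap, but Scx-positive library 3 and Scx-deleted library 2 lay close together and Scx-positive library 5 stood high. Ddr1 fell by 0.29 ± 0.07 on the log2 scale (edgeR adjusted p = 0.00613), and by 0.19 ± 0.04 without Scx-positive library 5 (adjusted p = 0.00129). Ddr2, the receptor for fibrillar collagen in mesenchymal cells, averaged 1054 ± 28.4 and 1094 ± 39.4 CPM, with a log2 change of 0.05 (95% interval -0.03 to 0.14). The ratio of Ddr1 to Ddr2 per kilobase was 0.432 ± 0.0640 in the Scx-positive and 0.340 ± 0.0251 in the Scx-deleted libraries.

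**Figure D4:**
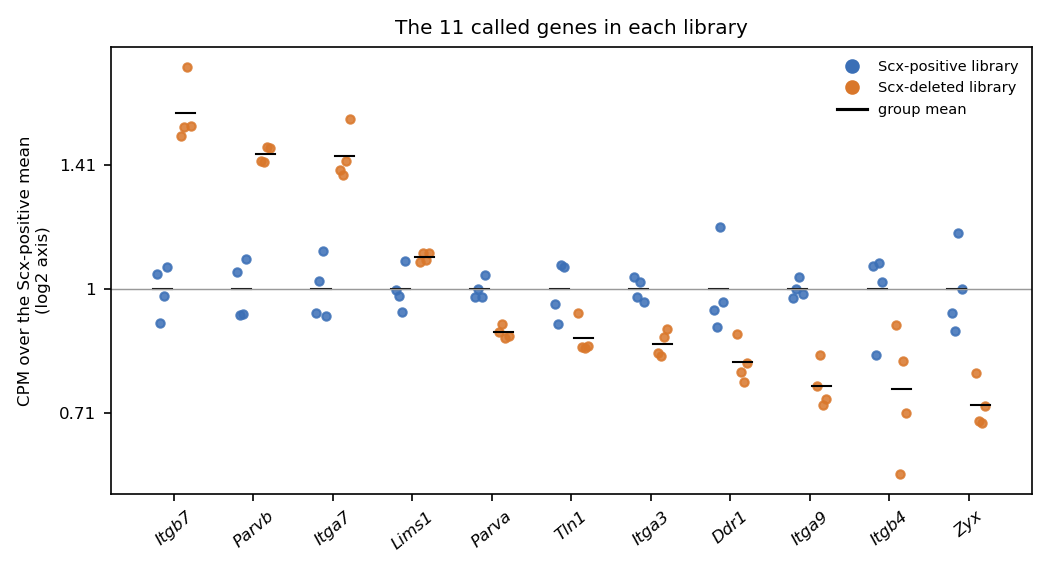
Level of each of the 11 called genes in each library, as CPM divided by the Scx-positive mean of that gene (log2 axis), with black lines at group means. Scx-positive libraries (blue) lie around 1, and Scx-deleted libraries (orange) lie wholly above them for Itgb7, Parvb and Itga7 and wholly below them for Zyx, Itga9, Ddr1, Itga3 and Parva. The groups overlap for Lims1, Tln1 and Itgb4.

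The authors' deposited table, made from the same samples and so not independent, called the same 11 genes in the same directions. It called 4 more: Itgb1 at a log2 fold change of 0.09 (adjusted p 0.0370), Vcl, as above, Ilk at -0.09 (0.0498) and Tns1 at -0.13 (0.0287). The remaining 20 were called in neither.

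Other genes of the adhesion pathway were counted in the same fit. Of 9 further integrin subunits only 2 were tested, and 1 was called in each direction. Itgb2, the beta chain of leukocyte integrins, rose from 3.16 ± 0.428 to 6.11 ± 1.06 CPM (log2 change 0.94 ± 0.14, edgeR adjusted p = 0.000122). It is among the 10 leukocyte markers summed for Itgb7, so its rise is part of that sum. Its partners Itgal and Itgam, also among those markers, were near 0 CPM. Itga2b, the platelet alpha chain, fell by 0.29 ± 0.10 (edgeR adjusted p = 0.0415), a call lost in 10 of 18 alternatives, among them leaving out Scx-positive library 2, 3 or 5 or Scx-deleted library 2, 3 or 4.

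Of 31 other adhesion adaptors 29 were tested, and 4 were higher and 3 lower, with a median log2 change of -0.03. Over all genes 28.5% were called, and neither this list nor the list of adhesion signalling genes exceeded that share. Layn, the hyaluronan receptor layilin that binds talin, rose by 0.56 ± 0.05, and Itgb1bp1, the beta1-tail binder ICAP-1, by 0.23 ± 0.04. Sorbs3 (vinexin) and Sorbs2, which bind vinculin, fell by 0.44 ± 0.07 and 0.56 ± 0.12. The other called adaptors, named only to complete the counts, were Parvg and Kank1 (higher) and Pdlim7 (lower). The count of 4 was 2 without Scx-deleted library 3 and 2 without Scx-deleted library 4, and it was 6 without Scx-positive library 5 and 8 under the GC and length offset.

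Among 34 adhesion signalling genes, 4 were higher and 4 lower, with a median of -0.01. Elmo1 and Dock1, which together form an exchange factor for Rac downstream of p130Cas, rose by 0.76 ± 0.14 and 0.19 ± 0.04. Pak1, a kinase activated by Rac, and Rap1a, a small GTPase that promotes talin recruitment, fell by 0.22 ± 0.05 and 0.24 ± 0.06. Rock1 and Arhgap35 (higher) and Csk and Rock2 (lower) complete the counts and were named after their values were seen. The lower count was 2 without Scx-positive library 6 or without Scx-deleted library 4 or 5, 2 with numbers 2, 3 and 5 alone, and 7 under upper-quartile scaling, while the higher count was 7 under the GC and length offset.

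Of 12 membrane proteins that associate with integrins, 4 were higher and 1 lower, with a median of 0.04. Over all genes 14.0% were higher and 14.5% lower. The tetraspanin Cd63 rose by 0.34 ± 0.04 and Plaur, the urokinase receptor, by 0.32 ± 0.05, and Cd9 and Slc3a2 complete the count. Cav1 (caveolin-1) fell by 0.13 ± 0.05 (edgeR adjusted p = 0.0483), and that call was lost in 10 of 18 alternatives, among them leaving out Scx-positive library 2 or 6 or Scx-deleted library 3, 4 or 5.

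The matrix ligands of these receptors were counted in the same way. Over all genes tested, 14.0% were higher and 14.5% lower. Of 13 collagens, 10 were lower and none higher, with a median log2 change of -0.45. Col3a1 had a log2 change of -1.14 ± 0.07 and Col11a1 of -0.85 ± 0.05. The 4 collagen-binding integrin chains gave no call beside them, and of the 2 collagen receptor kinases only Ddr1 was lower. Of 16 RGD and related ligands tested, 3 were higher and 6 lower, with a median of -0.10. Tnc (tenascin-C) and Spp1 (osteopontin), both ligands of the alpha9 chain, each rose by 0.63 ± 0.05, while Itga9 itself fell. Vcam1, another ligand of that chain, fell by 0.46 ± 0.05 and Nov by 0.62 ± 0.09, and Tgfb1, named to complete the count of genes that rose, was the third of these.

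Of 10 laminin chains, 2 were higher and 4 lower, with a median of -0.06, beside 14.0% higher and 14.5% lower over all genes. Lama3 rose by 0.65 ± 0.15. Lama4 had a log2 change of -0.86 ± 0.07 and Lamb3 of -0.57 ± 0.11, and Lama2 and Lamb2, named to complete the count, were also lower. Without Scx-positive library 5, 4 laminin chains were higher. The difference between receptors and ligands was described by these counts and medians and was not tested.

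**Figure D5:**
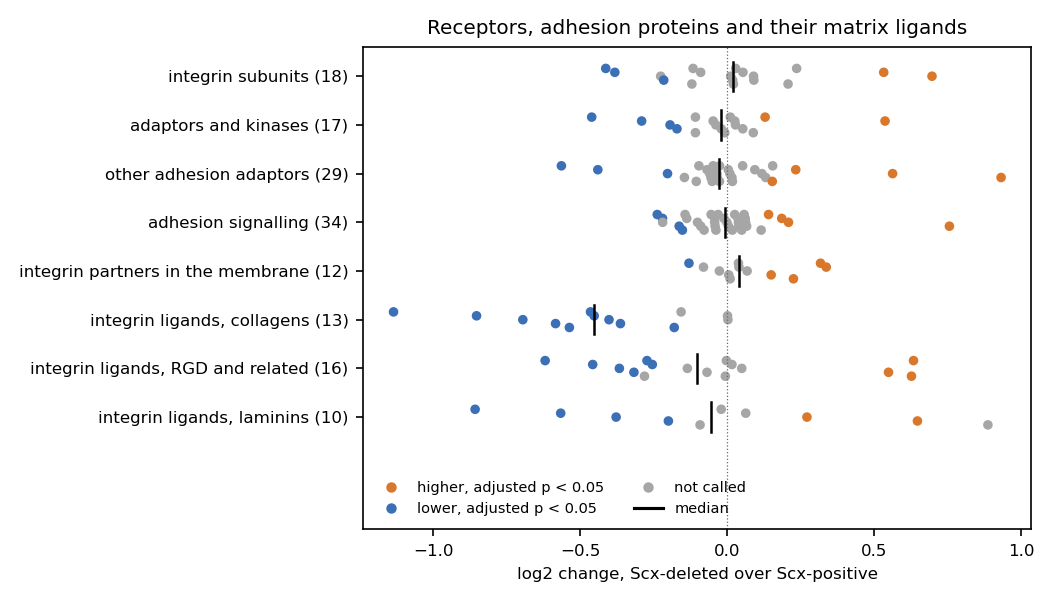
Log2 change, Scx-deleted over Scx-positive cells, of every tested gene in 8 lists, with the number of genes in parentheses, black lines at list medians, and orange or blue for genes called higher or lower. The collagen list, with a median of -0.45, lies mostly to the left of 0, while the 18 integrin subunits and 17 adaptors and kinases are centred near 0.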

How the data were processed

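RNA from cultured tail tendon fibroblasts was sequenced in 8 libraries, grouped by genotype. Per the labels' protocols, total RNA was purified with a Qiagen column kit and DNase I. The tools named per the submitters' processing notes are FastQC, STAR and DESeq2, with build mm10. Their roles and versions, the program that counted reads, its annotation and its use of strand are not given in those notes. The authors deposited raw whole-number counts for each gene symbol, and these counts went into all tests. Rows for reads in no feature (7.44% to 8.67% of counts) and ambiguous reads (0.490% to 0.567%) were left out. The authors' deposited comparison table gave log2 fold changes and adjusted p-values, used only beside the fit, with their direction read from Scx.

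Testing used edgeR 4.0.16 in R 4.3.3, with filterByExpr (minimum count 10, total 15), TMM factors, a quasi-likelihood model of genotype alone over all 13125 genes, and Benjamini-Hochberg adjustment at 0.05. The common biological coefficient of variation came to 5.50%. CPM use TMM factors. Gene positions and merged exon lengths came from GENCODE M21 on GRCm38, which matched 24498 of 24982 symbols (98.1%). A gene is said to have risen or fallen only where it passed the test.

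All 35 members are reported by role, with values per library for those called and for the main chain of each class. From each list of other pathway genes, up to 2 called genes per direction with the smallest p were named. A few genes of these lists are not reported here by name but stay in every count. The members, lists and tests were chosen with earlier results of these data known. Other fits used RLE or upper-quartile scaling, no filter or at least 5 CPM in 4 libraries, DESeq2 1.42.0, limma-voom (limma 3.58.1), a block for the replicate number, only the libraries numbered 2, 3 and 5 (with and without that block), an offset for GC content and length, other thresholds, and each library left out in turn. The fit was tested on simulated data.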

Additional observations from a re-analysis of the deposited data

Results flagged for a closer look

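In 3 of 70 groups of 4 libraries, each group holding 1 gene of the set in 1 genotype, a single library lay far from the other 3 by Dixon's criterion, and chance alone flags about 1 in 20 such groups. Itgb5 measured 397 CPM in Scx-positive library 5, while the remaining Scx-positive libraries spanned 332 to 343 CPM, and the gene was not called with or without that library. Itgb7 measured 51.7 CPM in Scx-deleted library 4, with 42.8 to 44.0 CPM in the others, all above the Scx-positive range. Tln1 measured 1001 CPM in Scx-deleted library 2, with 909 to 913 CPM in the others, and that library is the 1 that overlaps the Scx-positive group.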

How the results depend on the processing

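Of the 11 called genes, 7 (Itga3, Itga7, Itga9, Itgb7, Parvb, Zyx and Ddr1) kept direction and call in all 18 alternative fits. Leaving out 1 library at a time gave 3 to 5 genes higher and 5 to 9 lower, beside 4 and 7, and without Scx-positive library 5 the calls over all genes went from 3744 to 4719. With a change of at least 0.32 on the log2 scale also required, 3 genes were lower. The GC and length offset gave 6 higher and 8 lower, with Tln2, Vcl and Itga11 added, and 4923 calls over all genes. Of the 24 uncalled genes, 19 were called in no alternative, and 10 with log2 changes near 0 changed sign without a call. Under upper-quartile scaling the log2 change was -0.0028 for Itgav, -0.012 for Itgb5, -0.0051 for Itgb8 and -0.013 for Bcar1. With 1 library left out it ran from -0.011 to 0.22 for Itga8, -0.0041 to 0.043 for Itgav, -0.33 to 0.071 for Itga4, -0.012 to 0.082 for Itgb5, -0.028 to 0.059 for Itgb8, -0.031 to 0.028 for Fermt2, -0.073 to 0.035 for Lims2, -0.041 to 0.087 for Bcar1 and -0.036 to 0.010 for Ptk2. The cause was not tested.

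The numbers were not taken as pairing, because nothing in the labels says that equal numbers are pairs. Same-numbered libraries deviated together with correlations of -0.0602, 0.156 and 0.0568, and 3 of 6 libraries correlated best with their own number. With so few shared numbers, these values cannot decide whether the libraries pair. With the replicate block 4 genes were higher and 7 lower (3237 calls over all genes), Tln1 lost its call (adjusted p = 0.0600), Itga1 gained one (0.0209), and 2 adhesion signalling genes were lower. With numbers 2, 3 and 5 alone 4 were higher and 5 lower (2528 over all genes), with Itgb4 (0.0879) and Tln1 (0.133) lost. With the block added to those libraries 4 were higher and 6 lower, with Parva (0.0503) and Tln1 (0.0777) lost and Itga1 (0.0263) gained. Those 3 fits (all libraries with the block, then numbers 2, 3 and 5 alone without and with it) gave log2 changes of -0.054, -0.053 and -0.051 for Itga8, -0.0062, -0.0076 and -0.0032 for Itgb5, 0.022, 0.025 and 0.025 for Fermt2 and 0.0072, 0.0103 and 0.0101 for Ptk2, and the first 2 gave -0.0010 and -0.0012 for Pxn. For genes of a few CPM, such as Itga2, Itga4 and Itga8, only changes beyond their intervals were detectable at this depth.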

Other observations

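Scx lies on chromosome 15, and so do 4 genes of the set: Itga5, Itgb7, Parvb and Ptk2. Itgb7 and Parvb rose, and Itga5 and Ptk2 were not called. Of the 527 genes tested on that chromosome, 13.1% were higher and 12.9% lower, beside 14.0% and 14.5% over all chromosomes.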
